A study of Rattus norvegicus with 24 samples.

Results

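The microRNAs (miRNAs) described here are rno-miR-15b-5p, rno-miR-16-5p, rno-miR-195-5p and rno-miR-497-5p (rno stands for rat), the miR-15/16 family as it is listed for rat serum. They were taken by name, and they are 4 of the 753 mature miRNA names in the deposited tables. Serum came from male Wistar Kyoto rats that ate ordinary facility chow or a diet with 6% fish oil by weight for 8 weeks from 4 weeks of age. They then breathed either clean air or ozone (0.8 ppm) for 4 h on each of 2 days. The groups were normal diet in air (n = 6 libraries), normal diet in ozone (n = 6), fish oil in air (n = 6) and fish oil in ozone (n = 5), with 1 library per rat. Replicate 2 of the fish oil ozone group is not used here, and neither is a diet with another oil, so a fish oil difference below is a difference from chow. Serum holds miRNAs shed by many tissues, so a higher shedding of a miRNA, more cells that shed it and slower clearance cannot be told apart.

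MiRNAs bind target messages mainly through the seed, a short stretch near the 5′ end, and family members with one seed can repress the same targets. The miR-15/16 family restrains cell division and survival, with BCL2 and cyclin messages among its well known targets. MiR-16 is plentiful in blood cells, leaves red cells when they break, and often serves as the reference in serum miRNA assays. MiR-195 and miR-497 are cut from one primary transcript and are best known from muscle, vessel wall and other mesenchymal tissue.

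The mature sequences are shown because they define the family and bear on how well its reads can be told apart. All 4 names matched the RefSeq table (build GRCr8), and the capitals mark the seed, bases 2 to 8 counted from the 5′ end. The blood-cell member and its partner from the same hairpin cluster come first, then the pair from the other cluster:
miR-16-5p: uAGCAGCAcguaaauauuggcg
miR-15b-5p: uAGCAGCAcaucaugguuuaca
miR-195-5p: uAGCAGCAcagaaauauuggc
miR-497-5p: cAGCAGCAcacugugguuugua
The seed was identical in the 4 members. It was carried by 5 of the 693 mature rat miRNAs listed by RefSeq, and the remaining one was miR-322-5p. Outside the seed the members diverged. The positions below cover the whole aligned length, the seed and the first base included. MiR-16-5p and miR-195-5p differed at 2 of 21 aligned positions, G10A and U11G from miR-16-5p to miR-195-5p. MiR-15b-5p and miR-497-5p differed at 6 of 22, and miR-16-5p and miR-497-5p at 11 of 22. Each member had 1 locus in the tables (rn5 coordinates as the files give them). MiR-15b-5p lies on chromosome 2 at 184967060 to 184967082, with miR-16-5p at 184967206 to 184967228 downstream of it. MiR-497-5p lies on chromosome 10 at 56589142 to 56589164, and miR-195-5p starts 337 bases further on, at 56589479 to 56589500. None of the 4 loci held fractional counts. How reads that match several names were assigned is not given in the sources used here.

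Serum miRNA of this family was nearly all miR-16-5p. It supplied 91.97% to 99.3% of the 4 members' reads in each library and 19338 reads over the 23 libraries, against 417 for miR-497-5p and 11 for miR-195-5p. By mean share of miRNA reads miR-16-5p ranked 11 of 753 names at 1.68%, miR-497-5p 103 at 0.0411%, miR-15b-5p 149 at 0.0109% and miR-195-5p 282 at 0.00120%. The members are 21 or 22 bases long, so these shares were compared without a length correction; how evenly the library kit captured each sequence was not tested. The miRNA total per library was 23276 to 94264 counts and lower on fish oil, and 3 counts, the smallest number treated as above 0 here, came to 31.8 to 129 CPM (counts scaled to a common library total). MiR-16-5p and miR-497-5p passed the low-count filter with 134 other names. MiR-15b-5p and miR-195-5p did not, and are described by their counts.

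**Figure D1:**
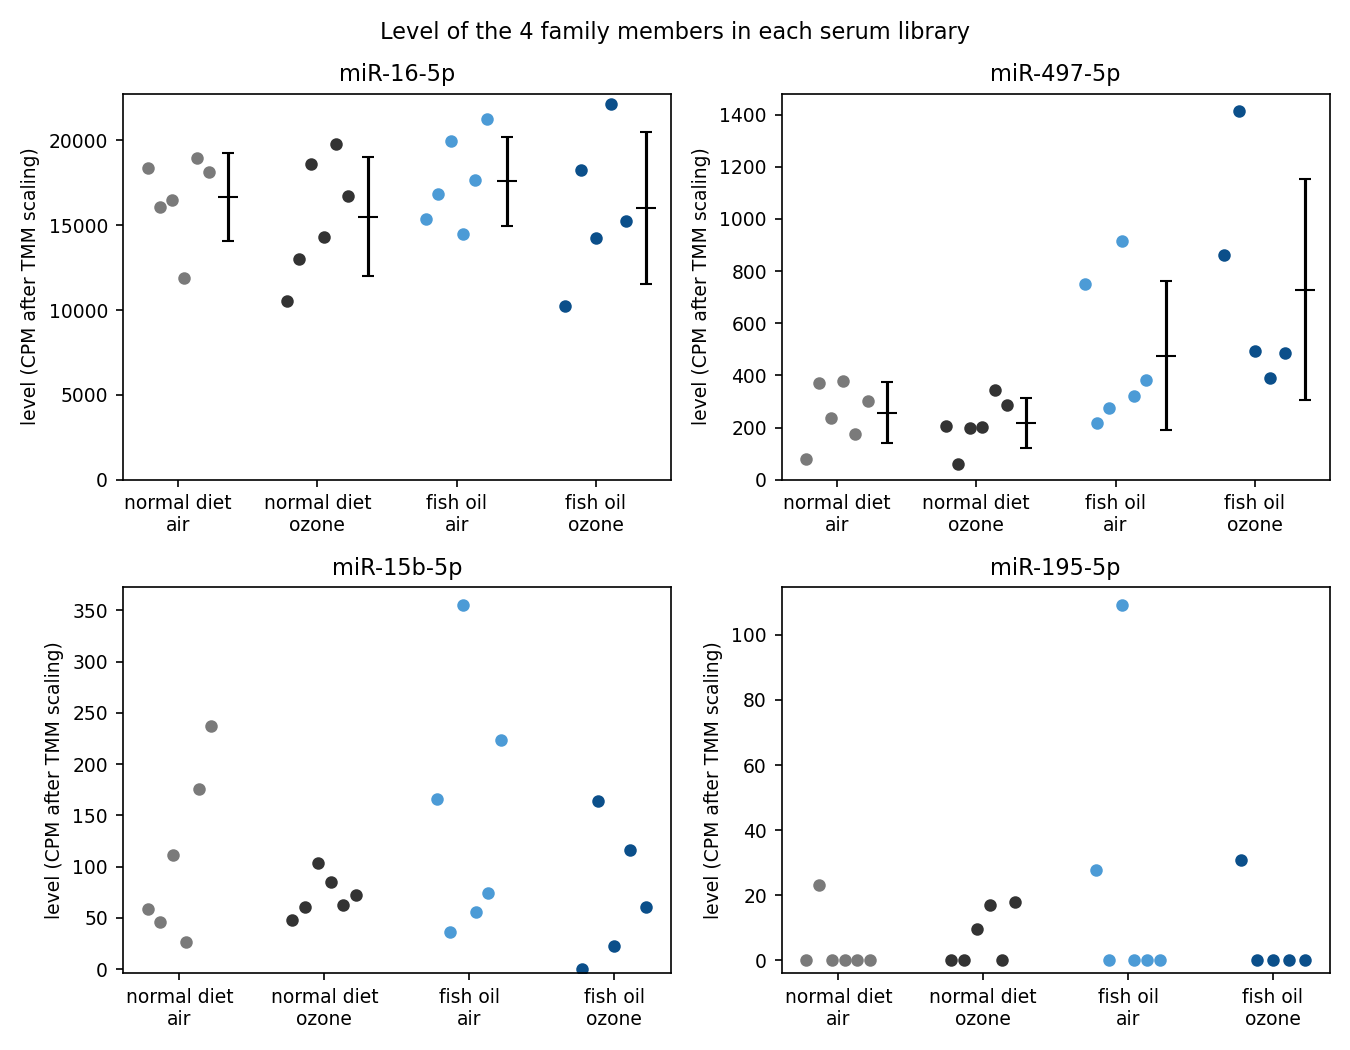
Level of each family member in CPM after TMM scaling (y axis) in every library, by diet and exposure (x axis); bars beside the points of miR-16-5p and miR-497-5p are mean ± SD, and the sparse miR-15b-5p and miR-195-5p are shown as points only. MiR-16-5p lies between 10219 and 22170 CPM in every group, while the 5 fish oil ozone libraries of miR-497-5p, at 389 CPM or more, all lie above the 6 normal diet ozone libraries. How many other tested miRNAs separate the diets in this way was not counted. In the authors' RPM, reads scaled to a larger total, the ozone groups of miR-497-5p overlap.

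MiR-16-5p was present at similar levels in the 4 groups. On the normal diet its lowest, median and highest levels were 11917, 17319 and 18990 CPM in air, and 10555, 15528 and 19766 CPM in ozone. On fish oil in air they were 14481, 17243 and 21293 CPM. The 5 fish oil ozone libraries had 10219, 14271, 15268, 18279 and 22170 CPM. The ranges of all 4 groups overlapped, and the fish oil ozone libraries spread most widely, holding both the lowest and the highest level of the series. In order of their means the groups were fish oil air (17595 ± 2633 CPM, SD, n = 6), normal air (16670 ± 2590, n = 6), fish oil ozone (16041 ± 4478, n = 5) and normal ozone (15498 ± 3509, n = 6), and neighbours in that order overlapped.

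Averaged over exposures, miR-16-5p differed between diets by +0.06 on the log2 scale (SE 0.15, edgeR quasi-likelihood adjusted p = 0.778), with a 95% interval from −0.24 to +0.36, or 0.849-fold to 1.29-fold. In the same contrast 36.8% of the 136 tested miRNAs passed, 19.9% higher and 16.9% lower. The difference was +0.08 in air (SE 0.20, edgeR adjusted p = 0.841) and +0.05 in ozone (SE 0.21, edgeR adjusted p = 0.886). Its rank by fold change was 68 of 136, and its value was close to the median of all tested miRNAs, +0.06. Leaving out single libraries moved the sign of the average, which ranged from −0.031 to +0.10.

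That near-zero value holds relative to the other miRNAs. The authors' RPM values, reads scaled to a larger total, imply a read total per library, 2243915 to 7729936, of which miRNA is a small part. When libraries were sized by this implied total, the median of the 136 tested miRNAs moved to −0.87, and miR-16-5p moved with it. It was then 0.87 lower on the log2 scale on fish oil (SE 0.32, edgeR adjusted p = 0.0205), where 51.5% of the tested miRNAs were called lower. In the authors' RPM the lowest, median and highest values of miR-16-5p were 91.7, 190.8 and 446 in normal air, 95.8, 243 and 442 in normal ozone, and 67.7, 120.1 and 225 in fish oil air. The 5 fish oil ozone libraries had 60.8, 82.1, 123, 162 and 245 RPM. On that scale too the groups overlapped, with the fish oil medians below the normal diet ones. Relative to the other miRNAs miR-16-5p thus moved with the middle of the profile, and per read in the implied total it was lower on fish oil.

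MiR-497-5p rose with fish oil relative to the other miRNAs. Its counts were 4 to 32 (median 15.5) in normal air, 2 to 22 (median 14.5) in normal ozone and 6 to 33 (median 18.5) in fish oil air, and 28, 43, 22, 10 and 16 in fish oil ozone replicates 1, 3, 4, 5 and 6. These are few reads, and the 2 reads of normal ozone replicate 2 lie below the floor of 3. After scaling, the lowest, median and highest levels were 77.7, 270 and 377 CPM in normal air, 60.5, 205 and 344 in normal ozone, and 217, 352 and 914 in fish oil air. The fish oil ozone libraries had 389, 485.7, 495, 862 and 1414 CPM. On this scale the diets did not overlap in ozone. In air 3 of the 6 fish oil libraries lay above the highest normal diet one and 3 lay within its range. How many of the other tested miRNAs separated the diets in ozone was not counted, so how unusual this is was not tested. In the authors' RPM the diets overlapped at both exposures. The lowest, median and highest RPM were 0.628, 2.84 and 7.70 in normal ozone and 2.16, 5.13 and 18.96 in fish oil ozone. In air they were 0.813, 3.62 and 6.41 on the normal diet and 0.965, 3.17 and 5.33 on fish oil.

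Averaged over exposures the rise was 1.29 on the log2 scale, or 2.45-fold (SE 0.30, 95% interval 1.60-fold to 3.75-fold, edgeR adjusted p = 0.00147), and 10 of 11 fish oil libraries lay above the mean of the normal diet at the same exposure. It was the fourth largest positive fold change of the 136 tested, in a contrast where 19.9% were called higher. In ozone it rose by 1.71 on the log2 scale, or 3.26-fold (SE 0.43, edgeR adjusted p = 0.00649, higher in 5 of 5), where 22.8% passed and 12.5% were called higher. In air the difference was +0.88 (SE 0.42, edgeR adjusted p = 0.156, above the normal diet mean in 5 of 6), where 5.88% of the tested miRNAs passed and 0.735% were called higher. Leaving out 1 library moved the value in air from +0.58, without fish oil air replicate 4, to +1.03, without normal air replicate 2. Whether the fish oil difference itself changed with ozone was tested by the interaction, +0.82 with a 95% interval from −0.40 to +2.05 (edgeR adjusted p = 0.916), so the 2 exposures were not shown to differ. In edgeR 0% of the tested miRNAs passed for the interaction, with 6 at an unadjusted p below 0.05, and DESeq2 called 0. The interaction ranged from +0.50, without fish oil ozone replicate 3, to +1.19, without fish oil air replicate 4. In order of mean level the groups were fish oil ozone (729 ± 423 CPM, SD, n = 5), fish oil air (476 ± 285, n = 6), normal air (256 ± 117, n = 6) and normal ozone (217 ± 96.3, n = 6), and none of the 3 neighbouring steps passed in edgeR.

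Fish oil ozone replicate 3, with the highest level, carried part of the call in ozone, which without it was +1.32 (edgeR adjusted p = 0.0574). The average over exposures passed in each of the 23 fits that left out 1 library, with edgeR adjusted p of 0.000835 to 0.00895. Sized by the implied total, miR-497-5p was +0.39 averaged over exposures (SE 0.43, edgeR adjusted p = 0.446). It was then +0.84 in ozone (edgeR adjusted p = 0.288) and −0.070 in air (edgeR adjusted p = 0.927). None of these passed the threshold, and the median of all tested miRNAs was −0.87 in the average.

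**Figure D2:**
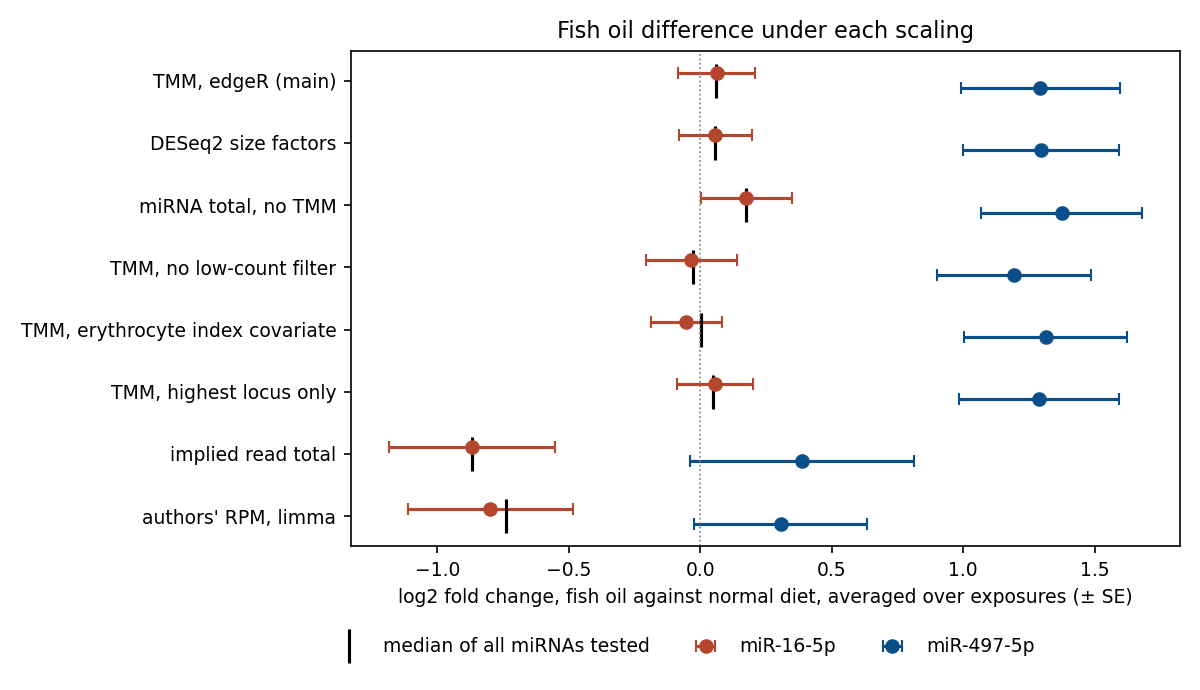
Log2 fold change of fish oil against normal diet averaged over exposures (x axis, ± SE) for miR-16-5p and miR-497-5p under each scaling or setting (y axis); the black tick is the median of all miRNAs tested. MiR-16-5p stays near that tick in every row, from +0.18 to −0.87, and miR-497-5p lies to its right in every row, from +1.37 to +0.31.

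The direct contrast of the cluster member with the blood-cell member is their ratio within a library, which does not depend on how libraries are scaled. For every 100 reads of miR-16-5p there were 0.422 to 3.16 reads of miR-497-5p (median 1.55) in normal air, 0.465 to 1.96 (median 1.57) in normal ozone and 1.29 to 6.31 (median 1.81) in fish oil air. In fish oil ozone replicates 1, 3, 4, 5 and 6 there were 8.43, 7.73, 3.47, 1.75 and 3.18. In ozone, 4 of 5 fish oil libraries lay above every normal diet library, and replicate 5 lay among them. In air 2 of 6 lay above, and the medians of the groups were close. For the other tested miRNAs relative to miR-16-5p, how many separated the diets in this way was not counted.

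Fitted for all 135 other tested miRNAs relative to miR-16-5p, miR-497-5p rose with fish oil by 1.22 on the log2 scale averaged over exposures (SE 0.35, limma adjusted p = 0.00981), in a contrast where 32.6% passed and 14.8% were called higher. In ozone it rose by 1.67 (SE 0.51, limma adjusted p = 0.0286), where 18.5% passed and 8.15% were called higher. In air the difference was +0.77 (SE 0.48, limma adjusted p = 0.328), where 2.96% passed and 0% were called higher, with 25 of the 135 at an unadjusted p below 0.05 in either direction. That value ranged from +0.45, without normal air replicate 1, to +1.01, without normal air replicate 4. An exact permutation test of the same ratio alone (two-sided, 4 ratio tests adjusted together) gave p = 0.00433 in ozone (adjusted p = 0.0173, n = 6 and 5) and p = 0.193 in air (adjusted p = 0.257, n = 6 each). The limma call in ozone ended without normal ozone replicate 1 (limma adjusted p = 0.0505) or 2 (0.0636), or without fish oil ozone replicate 1 (0.0663) or 3 (0.0998). The exact adjusted p in ozone was 0.0635 without normal ozone replicate 2, 3, 4 or 6. The call averaged over exposures passed in all 23 fits that left out 1 library, with limma adjusted p of 0.00560 to 0.0275.

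**Figure D3:**
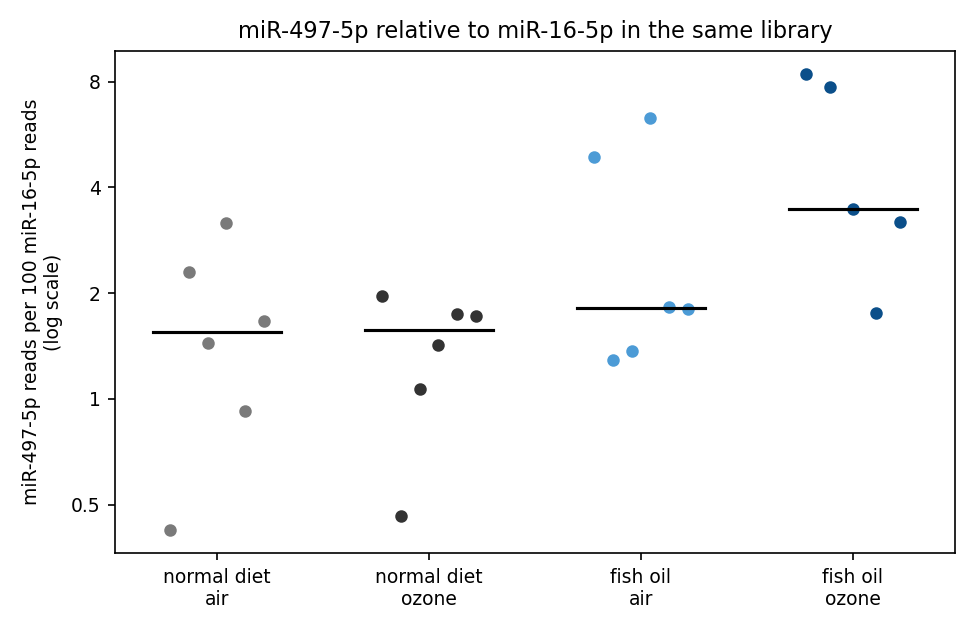
Reads of miR-497-5p per 100 reads of miR-16-5p in each library (y axis, log scale) by diet and exposure (x axis); the line is the group median. Fish oil ozone libraries reach 8.43 and have a median of 3.47, while the 12 normal diet libraries do not exceed 3.16.

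No difference between ozone and air passed the test for either tested member. On the normal diet the difference of ozone from air was −0.10 for miR-16-5p (95% interval −0.52 to +0.31, edgeR adjusted p = 0.939) and −0.21 for miR-497-5p (−1.08 to +0.65, edgeR adjusted p = 0.939). On fish oil it was −0.13 for miR-16-5p (−0.57 to +0.30, edgeR adjusted p = 0.911) and +0.61 for miR-497-5p (−0.26 to +1.48, edgeR adjusted p = 0.727). In edgeR 0% of the 136 tested miRNAs passed in either comparison, with 4 and 10 at an unadjusted p below 0.05, and DESeq2 called 1 on the normal diet and 0 on fish oil. Leaving out 1 library moved miR-497-5p on fish oil from +0.26, without fish oil ozone replicate 3, to +0.95, without fish oil air replicate 4, and on the normal diet from −0.37 to −0.07. For miR-497-5p the intervals reach down to 0.474-fold on the normal diet and up to 2.78-fold on fish oil.

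MiR-15b-5p, the neighbour of miR-16-5p on chromosome 2, was far rarer than it. Its counts were 1 to 18 (median 6) in normal air, 2 to 11 (median 4) in normal ozone, 1 to 14 (median 4.5) in fish oil air and 0 to 5 (median 2) in fish oil ozone, and 16 of 23 libraries had 3 or more. In a fit without the low-count filter (440 names, 13.6% called in the average over exposures) it differed between diets by +0.13 (SE 0.47, edgeR adjusted p = 0.9997). The counts of all 4 groups overlapped. MiR-195-5p, the near copy of miR-16-5p past the seed and the neighbour of miR-497-5p, was seen in 7 of 23 libraries, with 1 to 4 reads in each; 1 library had 3 or more. The unfiltered fit gave it +0.68 (SE 1.004, edgeR adjusted p = 0.814). Its ratio to miR-497-5p therefore rests on the 0.5 added to each count, and gave no difference past the threshold in ozone (exact permutation adjusted p = 0.143, n = 6 and 5) or in air (0.833, n = 6 each). Whether reads of miR-195-5p were counted under miR-16-5p, from which it differs at 2 positions, was not tested.

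The cluster on chromosome 10 left reads of opposite arms in serum. The other arm of the miR-195 hairpin, which carries another seed, is shown here because it outnumbered the family member:
miR-195-3p: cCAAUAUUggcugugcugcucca
MiR-195-3p made up 91.9% of the reads of that hairpin (125 of 136; exact Clopper-Pearson 95% interval 86.0% to 95.9%, which covers counting error only). It exceeded miR-195-5p in 20 libraries and equalled it in 3. Only 16 of the 23 libraries had 3 or more reads of miR-195-3p, so some of these comparisons lie below the floor of 3. In miR-497 the 3p arm had 0 of 417 reads, which by the exact interval allows a share of up to 0.881%. In miR-16 the 3p arm had 33 of 19371 reads (0.170%, exact interval 0.117% to 0.239%), and in miR-15b it had 72 reads (37.1%, exact interval 30.3% to 44.3%). The hairpins thus ran from almost pure 5p reads to mostly 3p reads.

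**Figure D4:**
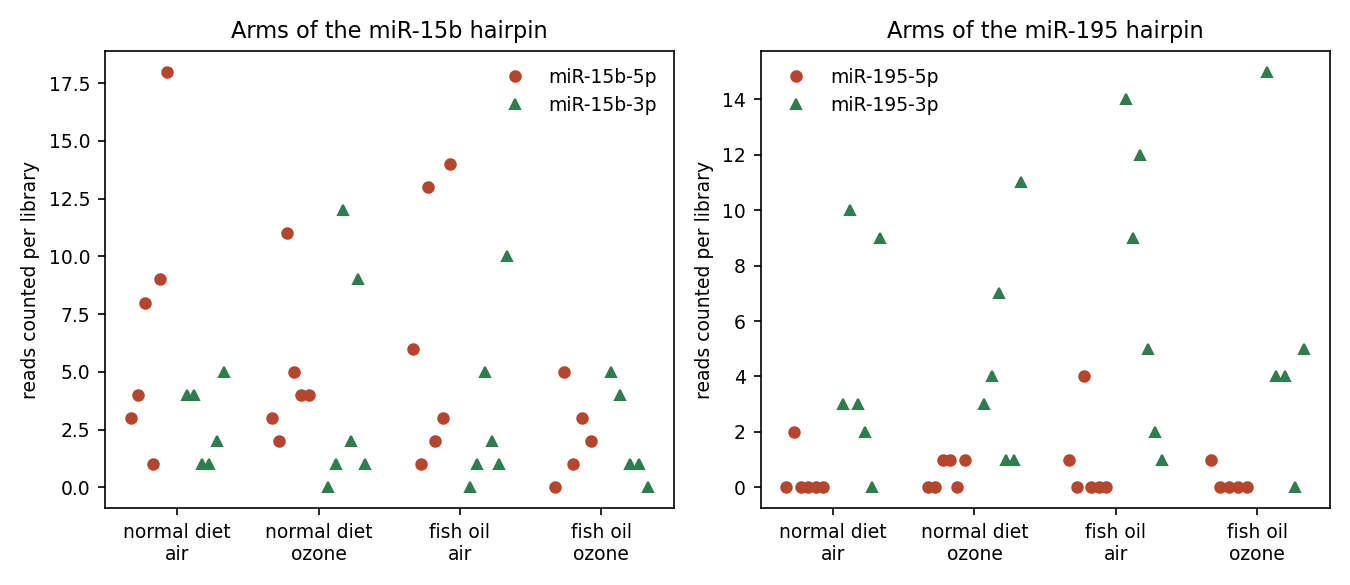
Reads of the 5p arm (circles) and 3p arm (triangles) of the miR-15b and miR-195 hairpins in each library (y axis) by diet and exposure (x axis). MiR-195-3p reaches 15 reads and miR-195-5p at most 4, while the arms of miR-15b overlap.

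MiR-195-3p also ran higher on fish oil. Its counts were 0 to 10 (median 3) in normal air, 1 to 11 (median 3.5) in normal ozone and 1 to 14 (median 7) in fish oil air, and 15, 4, 4, 0 and 5 in fish oil ozone replicates 1, 3, 4, 5 and 6. It did not reach the low-count filter. In the unfiltered fit it rose by 1.27 on the log2 scale averaged over exposures (SE 0.43, edgeR adjusted p = 0.0255), where 7.73% of 440 names were called higher. It was +1.42 in air (SE 0.58, edgeR adjusted p = 0.195), where 2.73% passed and 0.909% were called higher. In ozone it was +1.12 (SE 0.62, edgeR adjusted p = 0.290), where 8.18% passed and 4.32% were called higher. Leaving out 1 library moved the value in ozone from +0.31, without fish oil ozone replicate 1, to +1.60, without normal ozone replicate 6. The call ended in 6 of the 23 fits that left out 1 library, with the highest edgeR adjusted p, 0.224, without fish oil ozone replicate 1. The others were normal air replicate 5 (0.0679), normal ozone replicates 4 (0.0591) and 5 (0.0547), and fish oil air replicates 1 (0.0726) and 2 (0.0668). Sized by the implied total it was +0.34 (edgeR adjusted p = 0.772).

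Inside the groups, miR-16-5p and miR-497-5p varied with different miRNAs. Levels were centred on their group mean, and both members were correlated with every other tested miRNA across the 23 libraries (270 pairs adjusted together, 100000 permutations within groups). All pairs share the library's depth and scaling. For miR-16-5p 4 pairs passed by Pearson's r, 3 of them positive. The 3 highest r were those of the red-cell miRNAs miR-144-3p and miR-451-5p, which passed, and of the immune miRNA miR-146a-5p, which did not. With miR-144-3p Pearson's r was 0.78 (permutation p = 0.00013, adjusted 0.0175) and Spearman's rho 0.79 (p = 2e-05, adjusted 0.00540), and r was 0.70 without the 2 libraries farthest from the median of miR-16-5p. With miR-451-5p r was 0.71 (permutation p = 0.00125, adjusted 0.0482), rho was 0.62 (p = 0.00545, adjusted 0.134), and r was 0.52 without those 2 libraries. With miR-146a-5p r was 0.63 (permutation p = 0.0067, adjusted 0.129), rho was 0.57 (p = 0.0165, adjusted 0.212), and r was 0.45 without them. The other pairs that passed were named after their values were seen. The muscle miRNA miR-1-3p had r of 0.63 (permutation p = 0.00076, adjusted 0.0400) and rho of 0.67 (p = 0.00113, adjusted 0.0436), with r of 0.68 without those 2 libraries. MiR-676 had r of −0.64 (permutation p = 0.00013, adjusted 0.0175) and rho of −0.67 (p = 0.00099, adjusted 0.0436), with r of −0.59 without them. The 5 remaining erythrocyte markers did not pass: r was 0.31 for miR-185-5p, 0.23 for miR-25-3p, 0.16 for miR-363-3p, 0.04 for miR-144-5p, the other arm of the miR-144 hairpin, and −0.23 for miR-92a-3p (permutation adjusted p of 0.656 to 0.957).

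The 3 closest to miR-497-5p were miR-199a-3p and miR-152-3p, from the vessel wall and mesenchyme list, and miR-29c-3p, which is on none of the marker lists. These were the pairs of miR-497-5p that passed. With miR-199a-3p r was 0.72 (permutation p = 0.0003, adjusted 0.0270), rho was 0.75 (p = 0.00028, adjusted 0.0346), and r was 0.72 without the 2 libraries farthest from the median of miR-497-5p. With miR-152-3p r was 0.72 (permutation p = 0.00052, adjusted 0.0351), rho was 0.75 (p = 0.0005, adjusted 0.0346), and r was 0.68 without them. With miR-29c-3p r was 0.70 (permutation p = 0.00089, adjusted 0.0400), rho was 0.68 (p = 0.00142, adjusted 0.0479), and r was 0.67 without them. The other 5 tested members of the vessel wall and mesenchyme list did not pass: r was 0.30 for miR-143-3p, 0.27 for miR-145-5p, 0.23 for miR-100-5p, −0.12 for miR-99a-5p and −0.18 for miR-10b-5p (permutation adjusted p of 0.610 to 0.863). Between miR-16-5p and miR-497-5p themselves r was −0.18 (permutation p = 0.439, adjusted 0.737), rho was −0.17 (p = 0.468, adjusted 0.789), and r was −0.15 without the 2 libraries farthest in miR-16-5p and −0.37 without the 2 farthest in miR-497-5p. With libraries sized by the implied total that r became 0.62, and the median r of miR-16-5p with all other tested miRNAs moved from 0.04 to 0.74.

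**Figure D5:**
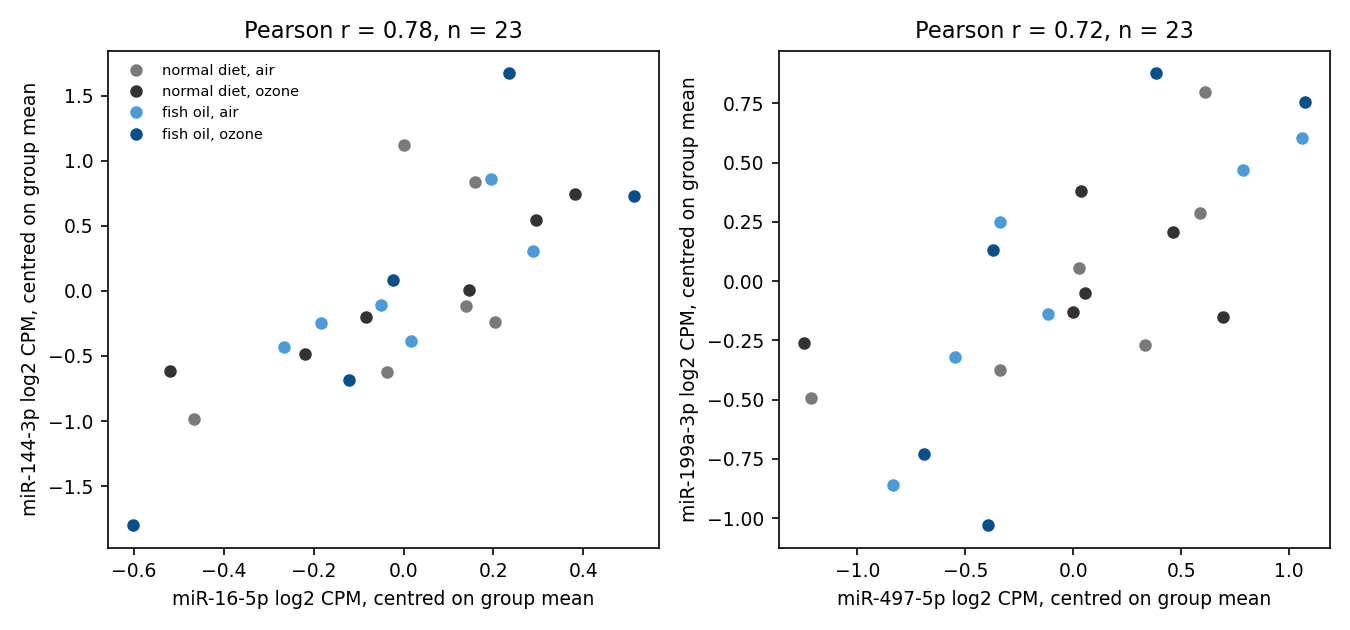
Log2 CPM centred on the group mean in the 23 libraries, for miR-16-5p (x axis) against miR-144-3p (y axis) and for miR-497-5p (x axis) against miR-199a-3p (y axis), coloured by group. Points rise together in both panels, with r of 0.78 and 0.72, and all 4 groups are spread along the trend.

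Markers of blood cells, vessel wall, muscle and liver were read beside these results. Counts of markers that rose or fell with fish oil averaged over exposures stand against 19.9% of all 136 tested miRNAs called higher and 16.9% called lower. The erythrocyte index, the log2 difference of miR-451-5p and miR-23a-3p that rises when red cells break, was −2.14 ± 0.559 in normal air, −2.79 ± 1.07 in normal ozone, −1.88 ± 0.643 in fish oil air (SD, n = 6 each) and −2.19 ± 1.29 in fish oil ozone (n = 5). With this index as a covariate miR-16-5p was −0.053 and miR-497-5p +1.31 averaged over exposures (edgeR adjusted p = 0.797 and 0.00188). Of the 8 erythrocyte markers tested, which include miR-16-5p, 2 rose and 3 fell with fish oil averaged over exposures. Their median was −0.03 against +0.06 for all tested miRNAs. The 2 of 8 is near the 19.9% called higher over all, and the 3 of 8 is above the 16.9% called lower. The summed level of the 7 others was 30746 to 63585 CPM in normal air, 39980 to 66676 in normal ozone, 26581 to 44552 in fish oil air and 19989 to 40684 in fish oil ozone. Most of that sum is miR-25-3p (28110 reads) and miR-92a-3p (19269 reads), while miR-451-5p had 677 reads.

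Most vessel wall and mesenchyme markers were also higher on fish oil relative to the other miRNAs. Of the 7 tested of 9 listed, 6 rose with fish oil averaged over exposures and 0 fell, with a median of +1.15 against +0.06 for all tested miRNAs; this list was chosen with earlier results of these data known. In ozone 5 of 7 rose (median +1.42), where 12.5% of all tested miRNAs were called higher. In air 0 of 7 passed in edgeR (median +0.86), and 1 of all 136 was called higher there. These calls used TMM scaling. Sized by the implied total, 1 of all 136 tested miRNAs was called higher averaged over exposures and 70 were called lower. This list was not counted separately on that scale. The list includes miR-199a-3p (+1.20, edgeR adjusted p = 0.000112) and miR-152-3p (+1.15, edgeR adjusted p = 0.000419). None of the 9 was at 0 in all libraries. Their summed level was 91423 to 280475 CPM in normal air, 84793 to 197344 in normal ozone, 119865 to 399261 in fish oil air and 175291 to 447603 in fish oil ozone, so the diets overlapped at both exposures. Most of that sum is miR-143-3p (196989 reads). The 3 striated muscle markers tested had a median of +0.25, and the cardiac miR-208a-3p was at 0 in all 23 libraries. The summed level of 7 platelet markers, mostly miR-191a-5p (218896 reads, named after its values were seen), was 224752 to 383782 CPM in normal air and 242275 to 384977 in normal ozone, against 99649 to 197498 in fish oil air and 101477 to 156442 in fish oil ozone, so the diets did not overlap. Of these 7, 2 rose and 2 fell with fish oil averaged over exposures, where 19.9% of all tested miRNAs were called higher and 16.9% lower. The median of the 7 was +0.31, and the fall of the sum goes against the sign of that median. Of 4 lymphocyte markers 2 rose and 0 fell, with a median of +0.37. Their summed level was 7969 to 9604 CPM in normal air against 9834 to 16862 in fish oil air, which did not overlap. It was 7451 to 11318 in normal ozone against 8954 to 15287 in fish oil ozone, which did. For the platelet and lymphocyte sums, the share of all tested miRNAs that separated the diets in the same way was not counted. Of 3 liver markers 0 rose and 1 fell averaged over exposures (median −0.62). In air 2 of the 3 fell (median −1.08), where 7 of all 136 tested miRNAs were called lower and their median was +0.08. Their summed level was 63371 to 189607 CPM in normal air, 47639 to 137706 in normal ozone, 29150 to 67559 in fish oil air and 63654 to 161297 in fish oil ozone. Of 3 myeloid markers tested 0 rose and 1 fell (median +0.08), and the summed level of the 4 listed was 6349 to 10844, 5805 to 15348, 5520 to 10244 and 4833 to 16866 CPM in the same order of groups. The part of any of these cells in the miR-497-5p and miR-16-5p results was not tested.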

How the data were processed

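The authors deposited expected counts per mature miRNA locus and RPM per name for 23 serum libraries. Build rn5 and the tools bcl2fastq, Partek and Bowtie 1.0.0 come from the submitters' processing notes, which name no annotation or rule for reads with several matches. Each deposited RPM value is the summed count over a larger read total, plus 0.0001, to within 0.0401 reads, and this implied total was worked out from both tables. Depth was 23276 to 94264 miRNA counts per library. Per the labels, RNA from 100 µl of serum gave libraries read for 50 cycles.

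Loci of a name were summed and rounded. Names were filtered (edgeR filterByExpr, minimum count 10, minimum total 15; 136 tested, holding 99.3% of the counts), scaled by TMM and tested with edgeR 4.0.16 quasi-likelihood in R 4.3.3, 1 mean per group, Benjamini-Hochberg over all tested names, threshold 0.05. SE came from fold change and F, intervals from these and the fit's degrees of freedom. Ratios to miR-16-5p were log2 values with 0.5 added to each count, fitted with limma 3.58.1 (trend, robust). DESeq2 1.42.0, other scalings, no filter, the erythrocyte index, single loci and leaving out each library were the alternatives, with log2(RPM + 1) in limma. The fits were also run on simulated counts that gave every miRNA the same spread, unlike the data, and no result here rests on that run.

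Named were the 4 members, the seed family, opposite arms, related miRNAs, the 3 closest miRNAs by group-centred Pearson r, and at most 4 markers per list, those with the smallest p. The 4 members and the lists were chosen with earlier results of these data known. Animal numbers run in separate blocks per group, pair no rats, and a batch that followed those blocks cannot be told apart from the groups. Each library is 1 rat per the labels, and which rats shared a cage is not used here.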

Additional observations from a re-analysis of the deposited data

Results flagged for a closer look

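Of 12 sets of values examined (miR-16-5p, miR-497-5p and their ratio in each group), 2 held a library far from the others; chance alone sets a library apart in about 1 in 20 groups. Normal air replicate 4 was the lowest of its group in miR-16-5p, at 13.55 log2 CPM, and its gap to the next library was 0.641 of the group's range. Without it the diet difference of miR-16-5p in air was −0.012. Normal ozone replicate 2 was the lowest of its group in miR-497-5p, at 6.645 log2 CPM from 2 reads, with a gap of 0.643 of the range.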

How the results depend on the processing

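Few reads of miR-497-5p and 5 to 6 rats per group limit every value here, and miR-15b-5p and miR-195-5p could not be tested after filtering. For miR-16-5p, the implied read total turned the diet difference to −0.77 in air, −0.96 in ozone and −0.87 averaged, and limma on RPM to −0.72, −0.88 and −0.80. No filter gave −0.012, −0.055 and −0.034, and the erythrocyte index −0.12 in ozone and −0.053 averaged. Ozone on the normal diet became +0.22 (implied total), +0.16 (RPM) and +0.039 (index), and ozone on fish oil +0.032 (implied total). For miR-497-5p, the implied total gave −0.070 in air, +0.84 in ozone, +0.39 averaged and +0.14 for ozone on the normal diet, and RPM +0.60 in ozone, +0.31 averaged and +0.055 for ozone on the normal diet. MiR-195-3p in ozone was −0.0047 with the implied total, an alternative chosen after seeing the data, as was leaving out libraries for it. These scalings change the reference; other causes were not tested.

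Leaving out 1 library, miR-16-5p ranged from −0.012 to +0.12 in air, −0.11 to +0.13 in ozone, −0.031 to +0.10 averaged and −0.16 to +0.071 in the interaction. MiR-497-5p in ozone ranged from +1.32 to +1.90, and relative to miR-16-5p from +1.42 to +1.97. The ratio for ozone on the normal diet ranged from −0.41 to +0.15. The ratio of miR-497-5p to miR-195-5p ranged from −0.55 to +0.42 in air and +0.97 to +1.64 in ozone, and in ozone passed without normal ozone replicate 5 (exact adjusted p = 0.0476). MiR-195-3p averaged ranged from +0.88 to +1.51. No paired analysis was possible because the labels give no numbers that groups share.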

Other observations

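Relatives outside the 4 members were read from the same tables. MiR-322-5p, which carries the family seed, had 27 reads over the 23 libraries (0 to 4 in each), and its neighbour miR-503-5p, whose seed differs in its last base, had 58 (0 to 9 in each). Their sequences are shown for comparison with the members, seed in capitals:
miR-322-5p: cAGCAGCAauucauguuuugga
miR-503-5p: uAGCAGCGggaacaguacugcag
Both names are listed at 2 loci each on chromosome X in rn5. The related miR-103-3p and miR-107-3p, known for their role in insulin sensitivity, were far more abundant, at 12341 and 1197 reads. Averaged over exposures, they differed between diets by +0.24 (SE 0.18, edgeR adjusted p = 0.303) and +0.27 (SE 0.24, edgeR adjusted p = 0.395), neither past the threshold.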
